A study of Mus musculus with 2 samples.

Results

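The cells described here are C1q macrophages from the developing mouse molar, taken from 1 library of mice given clodronate liposomes (Lipo-Clo) and 1 library of mice given vehicle liposomes (Lipo-PBS). A cell was counted when it held at least 200 genes, at most 20% mitochondrial UMIs (unique molecular identifiers, each standing for 1 captured transcript), at least 6 UMIs summed over C1qa, C1qb and C1qc, Col1a1 at no more than 1% of its UMIs, and no more than 1 UMI over Cd79a and Cd79b. This gave 308 cells of 17780 that passed the limits on genes and mitochondrial UMIs, 139 of 8886 in Lipo-Clo and 169 of 8894 in Lipo-PBS. The cells were selected on measured counts, so that the level of the C1q genes describes the choice and is not a result.

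Mandibular first molars with their surrounding tissue were dissociated at PN15.5 (PN, postnatal day) from C57BL/6J mice, and all cells were sequenced together. Lipo-Clo mice received clodronate liposomes intraperitoneally at 40 μg per g body weight on PN3.5 and PN6.5 and again on PN9.5 and PN12.5, and Lipo-PBS mice received the same volume of vehicle liposomes on the same days. Both libraries carry the batch label 1, and how many mice entered each was not given in the sources used here. With 1 library per condition no test between conditions was possible. Ratios are therefore given with 95% intervals that cover the counting of UMIs and not the spread between mice or between cells, and a gene is called higher or lower by size alone.

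Clodronate liposomes reach a cell only when it engulfs them, so they act on phagocytes, where the drug is turned into an ATP analogue that blocks the ADP/ATP carrier of mitochondria. C1q, the first component of the classical complement pathway, is made mainly by tissue macrophages. Such macrophages range between a scavenging, perivascular-type state marked by genes such as Mrc1, Cd163 and F13a1 and an antigen-presenting state marked by major histocompatibility complex (MHC) class II genes.

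C1q cells made up 1.56% of the Lipo-Clo cells (95% exact Clopper-Pearson interval 1.32 to 1.84) and 1.90% of the Lipo-PBS cells (1.63 to 2.21). The log2 ratio of the 2 shares was -0.28, with an interval from -0.61 to 0.05 that includes equality. The share is of all dissociated cells, and it depends on how many other cells each library held. At least 6 C1q UMIs were found in 176 Lipo-Clo and 227 Lipo-PBS cells, of which 33 and 52 were left out for Col1a1 and 4 and 6 for Cd79a and Cd79b. Just outside the limit, with 4 or 5 C1q UMIs, were 14 and 24 further cells, whose macrophage markers other than C1q took 1.27% and 1.10% of their UMIs. The 12 and 13 cells just inside it, with 6 or 7 UMIs, had 2.07% and 1.65%.

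The libraries shared 30 cell barcodes, none of them between C1q cells of both. The summed counts came to 391557 UMIs in Lipo-Clo and 487957 in Lipo-PBS, with a median of 2235 and 2555 UMIs per cell. The libraries differed as a whole in mitochondrial transcripts. C1q cells held a median of 0.298% mitochondrial UMIs in Lipo-Clo and 1.71% in Lipo-PBS, and all other cells held 0.288% and 1.67%. For this reason the ratio in all other cells that passed the limits is given beside many of the values that follow.

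The macrophage label was checked on 16 markers that did not choose the cells. All 16 were in use, meaning that a UMI was seen in at least 10% of the C1q cells of either library and at least 20 UMIs in both together, and their median log2 ratio was 0.01, beside 0.48 in all other cells. Apoe, the lipid carrier, stood at 9728 CPM (UMIs of a gene scaled to the same total in each library) in Lipo-Clo and 9437 in Lipo-PBS, against 163 and 242 in all other cells. Its log2 ratio was 0.04 (-0.02 to 0.11), and this abundant transcript was nearly level. Tyrobp, the adaptor of activating myeloid receptors, was at 3021 and 2308 CPM, and Csf1r, the receptor for the macrophage growth factor, at 557 and 682. Both Csf1r, with a log2 ratio of -0.29 (-0.55 to -0.04), and Adgre1, which encodes F4/80, with -0.17 (-0.50 to 0.16), differed by well under 2-fold. Within the 16 markers, Mrc1 and Mertk had the lowest values. The gene Mertk, a receptor for dying cells, had 18 and 45 UMIs, with an interval of its log2 ratio from -1.88 to -0.19. Over the alternatives its ratio ranged from -1.03 to -0.41.

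Across the 4458 genes in use, 120 were at least 2-fold higher in Lipo-Clo, which is 2.69% of them, and 471 were at least 2-fold lower, which is 10.6%. The median log2 ratio of all these genes was -0.17, and that of the same genes in all other cells was -0.04. The ratio was positive in 1771 of the genes and negative in 2687. Of the 591 genes past 2-fold, 527 (89.2%) had the same sign in all other cells, and 44 (7.45%) were past 2-fold there too in the same direction. The same counts were not made over all 4458 genes, so these shares have no background to be read against. A gene could come into use through 1 library, and 342 did so through Lipo-Clo and 928 through Lipo-PBS. Among the genes past 2-fold, 91 of the 120 higher ones passed through Lipo-Clo alone and 337 of the 471 lower ones through Lipo-PBS alone, so that for these the filter itself favoured a difference in that direction. Scaling by edgeR TMM factors moved the median to -0.01 and the split to 190 higher and 320 lower, and DESeq2 size factors gave 188 and 322, so that ratios near the 2-fold limit depend on the scaling by about 0.15 on the log2 scale.

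**Figure D1:**
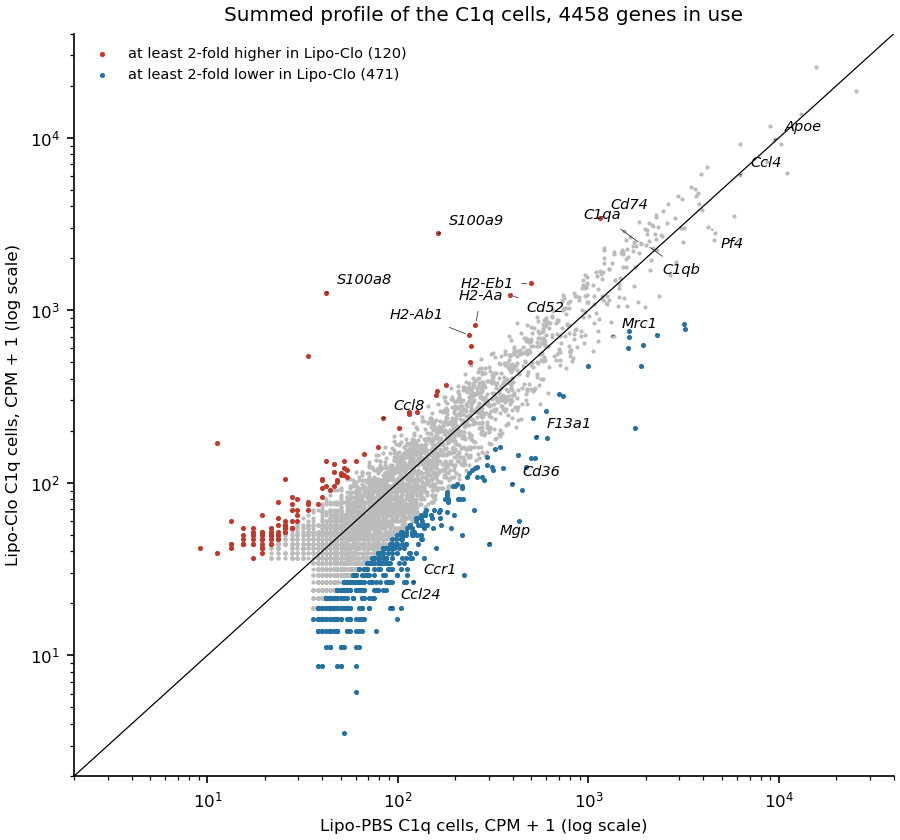
Summed level of each of the 4458 genes in use in C1q cells, as CPM + 1 on log axes, with Lipo-PBS on the x axis and Lipo-Clo on the y axis. Red points are the 120 genes at least 2-fold higher and blue points the 471 at least 2-fold lower in Lipo-Clo; the MHC class II genes lie above the line of equality, Cd36, F13a1 and Ccr1 below it, and Apoe and the C1q genes near it.

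The genes of MHC class II presentation had the highest median of the 24 functional lists. Their products load peptide from engulfed material and show it to CD4 T cells. Of 13 genes, 8 were in use and all 8 had a positive log2 ratio, against 1771 of all 4458 genes. At least 2-fold higher were 5, against 2.69% of all genes. The median was 1.30, beside 0.37 for the same genes in all other cells. H2-DMb1, which helps to exchange the peptide, is 1 of the 5 and came into use through Lipo-Clo alone, and its ratio was near 0 in thinned cells.

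Cd74, the invariant chain that guards the peptide groove, was at 3443 CPM in Lipo-Clo and 1154 in Lipo-PBS. Its log2 ratio was 1.58 (1.43 to 1.72), and that in all other cells was 0.29. H2-Aa, the alpha chain of I-A, was at 819.8 and 254 CPM, with a log2 ratio of 1.69 (1.39 to 2.00), beside 0.38 in all other cells. The I-A beta chain H2-Ab1 was at 715 and 236 CPM, a log2 ratio of 1.60 (1.28 to 1.93), beside 0.38. H2-Eb1, the I-E beta chain, was at 1430.2 and 498 CPM, a log2 ratio of 1.52 (1.30 to 1.75), beside 0.36. All 4 were about 3 times as abundant in Lipo-Clo. Ctss, the protease that trims the invariant chain, was at 1331 and 1125 CPM and differed little, with 0.24 (0.07 to 0.42), beside 0.54. Markers of dendritic cells, which also carry MHC class II, held 6 UMIs in Lipo-Clo and 4 in Lipo-PBS over 6 genes. Zbtb46 was the most abundant over both libraries together, and 2 genes were at 0 in both.

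The promoter windows of 2 of these genes are shown because the genes moved together and both windows hold the same letters. They run from 250 bases before to 50 after the start site and come from RefSeq on GRCm38.p6. Capitals mark CTGATTGG, the letters of a Y box, searched on both strands together with the reverse complement CCAATCAG; it contains the CCAAT box core ATTGG.
H2-Aa, minus strand, chr17:34287774-34288073: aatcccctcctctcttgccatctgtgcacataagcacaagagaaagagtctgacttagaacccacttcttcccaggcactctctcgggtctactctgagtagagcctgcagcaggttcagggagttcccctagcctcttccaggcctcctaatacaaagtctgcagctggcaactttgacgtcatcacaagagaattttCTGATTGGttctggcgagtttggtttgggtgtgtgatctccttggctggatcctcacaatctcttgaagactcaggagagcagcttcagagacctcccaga
H2-Eb1, plus strand, chr17:34305617-34305916: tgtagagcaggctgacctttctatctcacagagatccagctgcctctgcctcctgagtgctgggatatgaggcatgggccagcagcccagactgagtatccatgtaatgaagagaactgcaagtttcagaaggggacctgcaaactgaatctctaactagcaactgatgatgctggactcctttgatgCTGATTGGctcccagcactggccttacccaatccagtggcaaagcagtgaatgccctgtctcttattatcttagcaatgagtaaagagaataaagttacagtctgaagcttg

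In H2-Aa the match begins 51 bases before the start site and in H2-Eb1 62 bases before it, in both on the strand of the gene. Of the 13 genes of the list, 10 were matched to a window by symbol, and 4 of these 10 held the letters (H2-Aa, H2-Eb1, H2-Eb2 and H2-Oa). H2-Ab1, Cd74 and Ciita had no window. H2-Eb2 had no UMI in the C1q cells of either library, and H2-DMb1 had a window without the letters. Among all 27025 genes with a window, 4.70% held them on either strand, and among all 32851 windows 4.10%. The 16 matched genes of the resident macrophage list, given further on, held none. Cd36, a gene among the leading lower ones described further on, held them too, on the opposite strand 195 bases before its start site. A match describes the letters in the window and says nothing of binding in these cells.

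MHC class II transcripts were unevenly spread over the cells. To compare cells of unequal depth, each was thinned to 1000 UMIs, which left 130 Lipo-Clo and 160 Lipo-PBS cells, with 9 shallower cells left out of each. At least 10 MHC class II UMIs per 1000 were held by 33 of 130 Lipo-Clo cells (25.4%, exact interval 18.2 to 33.8) and by 12 of 160 Lipo-PBS cells (7.50%, 3.94 to 12.7). The median cell held 3 and 2 UMIs. The limit of 10 was chosen after the values were seen, and 6 and 7 cells had 8 to 11 UMIs. Below it the list stood at 1867 CPM in Lipo-Clo and 1829 in Lipo-PBS, and at or above it at 28229 and 27714. These levels are set largely by the limit, which was placed on the same UMIs. Without thinning, H2-Aa was seen in 23.7% and 11.8% of C1q cells, and after thinning in 20.8% and 8.12%. Mesenchymal cells, which should lack it, had a UMI in 0.706% and 1.72% after the same thinning.

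The cells rich in MHC class II held few transcripts of the resident macrophage list in both libraries, with a median of 2 per 1000 UMIs each. Cells below the limit held a median of 10 in Lipo-Clo and 13 in Lipo-PBS. Over all thinned cells the quartiles were 2.25 and 15 in Lipo-Clo and 7 and 20 in Lipo-PBS. No resident UMI was seen in 14 Lipo-Clo and 3 Lipo-PBS cells.

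**Figure D2:**
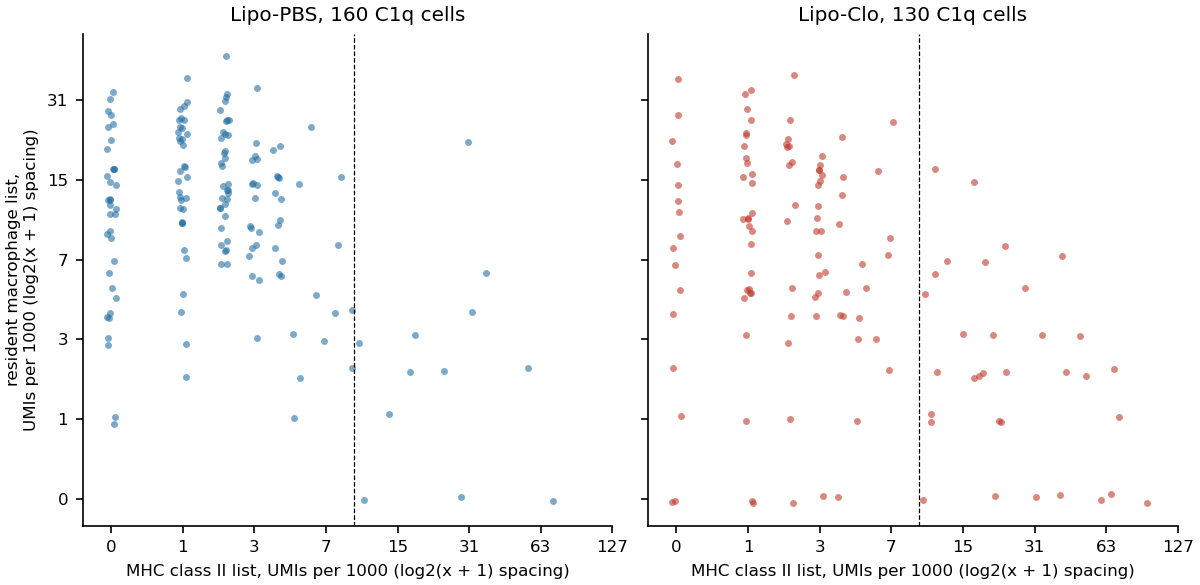
Each point is 1 C1q cell thinned to 1000 UMIs, with its MHC class II UMIs on the x axis and its resident macrophage UMIs on the y axis, both spaced as log2(x + 1) and jittered slightly; the dashed line marks 10 MHC class II UMIs. To the right of the line lie 33 of 130 Lipo-Clo cells and 12 of 160 Lipo-PBS cells, mostly low on the y axis.

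The resident macrophage list had the lowest median of the functional lists after the mitochondrial transcripts. Of 20 genes, 17 were in use, and 14 of these had a negative log2 ratio, as did 2687 of all 4458 genes. At least 2-fold lower were 4, against 10.6% of all genes. The median was -0.74, beside -0.65 for the same genes in all other cells. Summed, the list was at 7930 and 12358 CPM in C1q cells and at 1119 and 1345 CPM in all other cells. Igf1 stood higher in all other cells, at 521 and 538 CPM, than in C1q cells, at 273 and 424. Maf was at 253 and 317 CPM in all other cells. Of the 17, 2 came into use through Lipo-PBS alone, 1 of them (Fcna) among the 4, and the 3 genes not in use were Timd4, Cd209f and Cd209g.

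F13a1, the A subunit of coagulation factor XIII, was at 184 CPM in Lipo-Clo and 531 in Lipo-PBS. Its log2 ratio was -1.53 (-1.93 to -1.15), and in all other cells, at 12.4 and 8.56 CPM, it was 0.53. F13a1 was not confined to C1q cells, since monocyte-marker cells, described further on, had 191 and 271 CPM. Cd163, the receptor for haemoglobin bound to haptoglobin, was at 123 and 258 CPM, a log2 ratio of -1.07 (-1.59 to -0.58), beside -2.20 in all other cells. Mrc1, the mannose receptor CD206, was at 705 and 1320 CPM, with a log2 ratio of -0.90 (-1.11 to -0.70), beside -1.93. A UMI of Mrc1 was seen in 40.8% of thinned Lipo-Clo cells and 62.5% of Lipo-PBS cells (58.3% and 82.2% without thinning), and in 0.217% and 0.836% of thinned mesenchymal cells. Selenop, a selenium carrier, was at 1203 and 2342 CPM with a log2 ratio of -0.96 (-1.12 to -0.81), beside -0.48. Gas6, the ligand that bridges dying cells to Mertk and Axl, was at 140.5 and 291 CPM, with -1.05 (-1.53 to -0.59), beside -0.65. Pf4, the most abundant gene of the list, was nearer to equality at 3047 and 4236 CPM, with -0.48 (-0.58 to -0.37), beside -1.46. In Mrc1, Cd163 and Pf4 the ratio was thus lower in all other cells than in C1q cells. Ninj1 had a ratio of 0.05 and an interval that includes 0.

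Fewer resident transcripts were also found when the cells rich in MHC class II were set aside. In the remaining 97 Lipo-Clo and 148 Lipo-PBS cells the summed list was at 9347 and 13054 CPM, a log2 ratio of -0.48 (-0.55 to -0.42), beside -0.64 (-0.70 to -0.58) in all C1q cells. F13a1 was then at -1.31 (-1.72 to -0.91), Mrc1 at -0.71 (-0.93 to -0.50) and Selenop at -0.94 (-1.11 to -0.77).

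Receptors for scavenging and phagocytosis were mixed. Of 27 genes, 22 were in use, 5 at least 2-fold lower and 1 at least 2-fold higher, against 10.6% and 2.69% of all genes. Of the 5, Colec12 and Scarb1 came into use through Lipo-PBS alone, and the 1 higher gene, Fcgr4, through Lipo-Clo alone. Cd163, already counted in the resident list, is another of the 5. The median was -0.23, close to that of all genes, and 0.05 in all other cells. Cd36, the receptor for oxidised lipid and dying cells, was at 97.0 CPM in Lipo-Clo and 393 in Lipo-PBS, with a log2 ratio of -2.02 (-2.56 to -1.51) against -0.43 in all other cells. After thinning it was seen in 13 of 130 Lipo-Clo and 38 of 160 Lipo-PBS cells, and without thinning in 16.5% and 47.9%, against 1.36% and 1.13% of thinned B cells. Colec12, a scavenger receptor with a collagen-like stem, had 18 and 50 UMIs and a log2 ratio of -1.16 (-2.02 to -0.35), beside -0.45. It stood higher in mesenchymal cells, at 215 and 275 CPM, than in C1q cells, at 46.0 and 102 CPM, and was at -0.78 without a limit on Col1a1. The Fc receptor genes Fcgr2b and Fcgr3 and the receptor gene Trem2 lay between -0.24 and -0.14 with intervals that include 0. Tyrobp, with 0.39 (0.27 to 0.51), was the most abundant gene of the list.

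**Figure D3:**
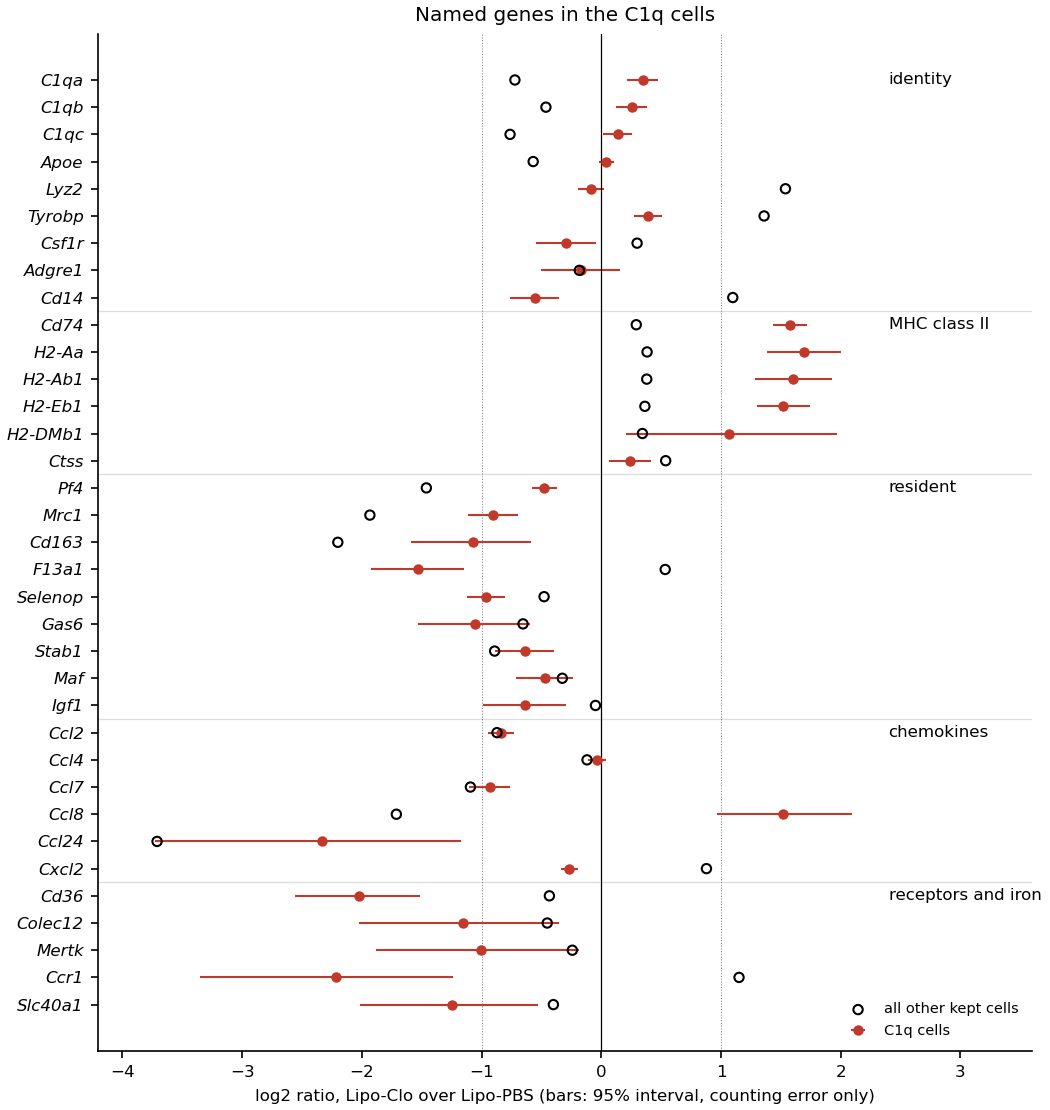
Log2 ratio of Lipo-Clo over Lipo-PBS for named genes, by group. Red points with bars are C1q cells with the 95% interval for counting error, open circles the same gene in all other cells, and dotted lines mark 2-fold; Cd74, H2-Aa, H2-Ab1, H2-Eb1 and Ccl8 lie above 2-fold, F13a1, Ccl24, Cd36 and Ccr1 below it.

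Of 16 chemokine genes in use, 14 had a negative log2 ratio, as did 2687 of all 4458 genes, and the median was -0.47, beside -0.24 in all other cells. Pf4 of the resident list is a member of this list too. In each direction 1 was past 2-fold, against 10.6% of all genes lower and 2.69% higher, and each of these came into use only through the library where it was high. Ccl2, which draws monocytes through Ccr2, was at 2541 CPM against 4539 in Lipo-PBS, with a log2 ratio of -0.84 (-0.95 to -0.73), beside -0.87 in all other cells. Ccl7, which also binds Ccr2, was at 1042 and 1986 CPM, with -0.93 (-1.10 to -0.76), beside -1.09. Both values were close to those of all other cells, where the genes were rare. Ccl4, a chemokine of activated macrophages, was at 6066 and 6214 CPM and hardly differed, with -0.03 (-0.11 to 0.04). Ccl24, which draws eosinophils, had 7 UMIs in Lipo-Clo against 44 in Lipo-PBS, for a log2 ratio of -2.33 (-3.73 to -1.17), beside -3.71 in all other cells.

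Ccl8, a further monocyte chemokine, went the other way. It was at 235 CPM in Lipo-Clo and 82.0 in Lipo-PBS, with a log2 ratio of 1.52 (0.97 to 2.09), and its level in all other cells was 3.75 and 12.3 CPM. Few cells carried it, since 3 cells held 54.3% of its Lipo-Clo UMIs and 35.0% of its Lipo-PBS UMIs. After thinning a Ccl8 UMI was seen in 13 of 130 and 10 of 160 cells, and without thinning in 23 of 139 and 16 of 169, against 0.570% and 1.29% of thinned mesenchymal cells. The chemokine receptor gene Ccr1, on the receiving side, had 10 and 58 UMIs and a log2 ratio of -2.22 (-3.35 to -1.24), while in all other cells it was 1.15.

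Of 11 interferon-stimulated genes in use, 2 were at least 2-fold lower and none higher, against 10.6% and 2.69% of all genes, and the median was 0.11, beside 0.03 in all other cells. Ifi207 was at 317 and 729.6 CPM, with -1.20 (-1.51 to -0.91), and Irf1, an interferon-induced transcription factor, had 21 and 74 UMIs, with an interval from -2.27 to -0.78. Isg15, a ubiquitin-like protein induced by interferon, was at 409 and 314 CPM, with 0.38 (0.05 to 0.71), below the 0.75 of all other cells. Of 13 genes of growth factors and matrix remodelling in use, 3 were at least 2-fold lower, against 10.6% of all genes. Of these, 2 came into use through Lipo-PBS alone, Hbegf and Bmp2. The remaining gene, Gas6, was also counted in the resident macrophage list. The median of the 13 was -0.50, beside -0.32 in all other cells. Hbegf had 13 and 52 UMIs (log2 ratio -1.68, -2.68 to -0.79) and Bmp2 had 14 and 66 (-1.92, -2.87 to -1.07). Tgfbi, a matrix protein induced by TGF-beta, was at 116 and 86 UMIs, with 0.75 (0.33 to 1.17). It was seen in 41.0% of Lipo-Clo and 26.6% of Lipo-PBS cells, but in 16.15% and 16.25% after thinning. The lowest ratio of Tgfbi over the alternatives was 0.16. Tgfb1 was at 229.9 and 217 CPM, with 0.08 (-0.34 to 0.50). Tgfb2 had 5 and 13 UMIs and an interval from -2.90 to 0.52.

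Of 12 iron and heme genes in use, 11 had a negative log2 ratio, as did 2687 of all 4458 genes. At least 2-fold lower were 4, 1 of them in use through Lipo-PBS alone, against 10.6% of all genes. Cd163 was among the 4 and was also counted in the resident and scavenger lists. The median of the 12 was -0.30, beside 0.07 in all other cells. Of 12 lipid handling genes in use, 10 were negative and 1 was at least 2-fold lower, against the same shares of all genes. Their median was -0.58, beside -0.24. Slc40a1, the iron exporter ferroportin, had 22 and 65 UMIs, a log2 ratio of -1.25 (-2.01 to -0.53). The ferritin genes Fth1, at 13796 and 13073 CPM, and Ftl1, at 9227 and 10199.7 CPM, differed little, and the sign of Ftl1 turned with either set of scaling factors. Lgals3, the galectin of phagocytes, was at 707 and 1361 CPM, with -0.94 (-1.15 to -0.74), and Fabp5, a fatty acid carrier, at 209 and 416 CPM, with -0.99 (-1.38 to -0.61). Both were concentrated in Lipo-PBS, where 3 cells held 39.0% and 44.8% of their UMIs. Lgals3 moved to -0.42 in thinned cells and Fabp5 to -0.36 at a limit of 3 C1q UMIs. The share of cells with an Lgals3 UMI went the other way, with 43.9% of Lipo-Clo and 33.7% of Lipo-PBS cells. Spp1, osteopontin, had 42 and 127 UMIs in 22 and 21 cells, and 3 cells held 68.5% of the latter.

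Immediate early genes, which react to tissue dissociation as well as to signals in the animal, had a negative log2 ratio in 25 of 27 in use, against 2687 of all 4458 genes. Their median was -0.54, beside -0.32 in all other cells. Egr1, a zinc finger transcription factor of this group, was at 753 and 1635 CPM, with -1.12 (-1.32 to -0.92), beside -0.36, and Fos, a subunit of AP-1, at 1049.7 and 1582 CPM, with -0.59 (-0.77 to -0.42), beside -0.52. Cytosolic ribosomal protein genes were positive in 81 of 82 in use, against 1771 of all 4458 genes. Their median was 0.51, beside 0.23 in all other cells. Nuclear genes of oxidative phosphorylation had a median of 0.41, beside 0.25. The mitochondrial transcripts had a median of -1.89, beside -2.18, and so were lower in C1q cells and in all other cells alike. The carriers that the clodronate metabolite blocks, Slc25a4 and Slc25a5, had log2 ratios of -0.07 (-0.48 to 0.34) and 0.31 (-0.03 to 0.64).

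**Figure D4:**
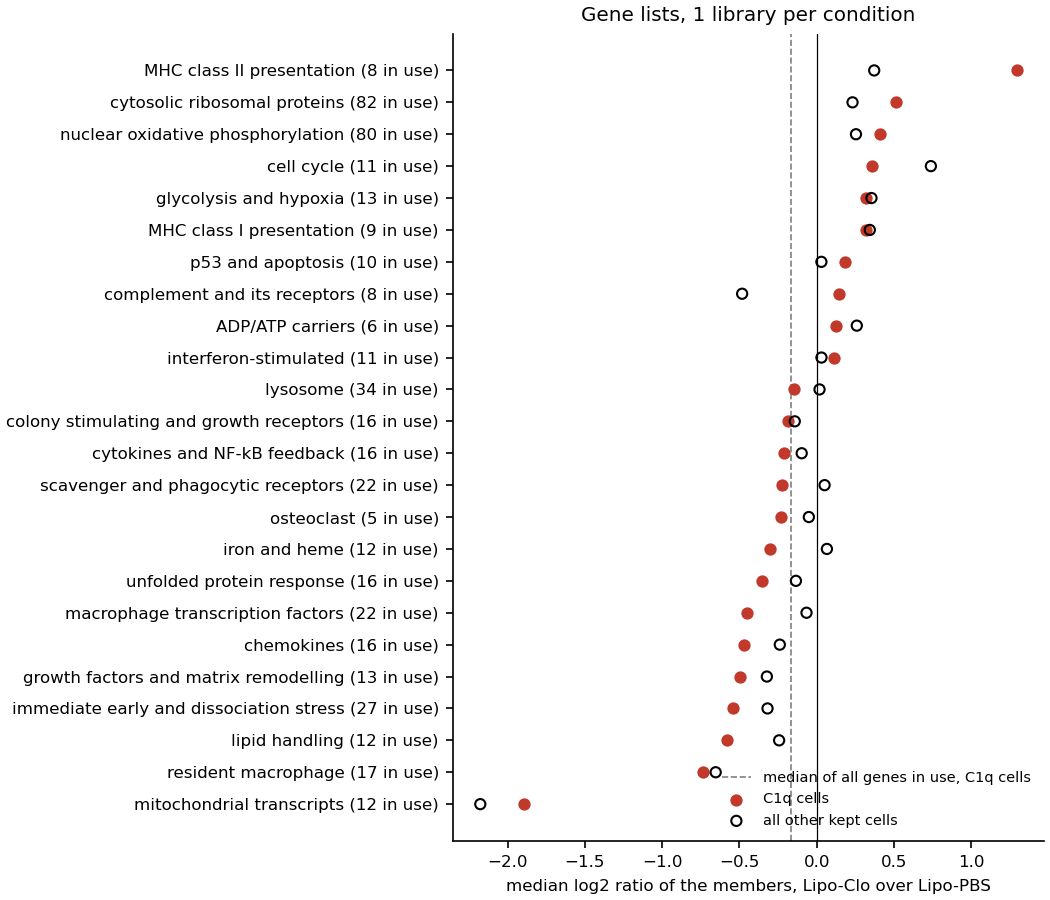
Median log2 ratio of Lipo-Clo over Lipo-PBS over the members in use of each functional gene list, in C1q cells (red) and in all other cells (open circles); the dashed line is the median of all genes in use in C1q cells. MHC class II presentation lies farthest to the right at 1.30 and the mitochondrial transcripts farthest to the left at -1.89 in C1q cells.

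The 12 leading genes in each direction, ranked by the interval bound nearest to 0, held further members. Of these, 3 higher genes (Dennd5b, Birc5 and Ccl8) came into use through Lipo-Clo alone and 7 lower genes (Fbn1, Col4a1, Ccr1, Ccl24, Gm14636, Aspn and Mgp) through Lipo-PBS alone. The 4 MHC class II genes above were among the leading higher genes. Cd52, a small surface glycoprotein of leukocytes, was at 1226 CPM in Lipo-Clo and 385 in Lipo-PBS, with 1.67 (1.42 to 1.92), beside 1.35 in all other cells. It was spread over 66.2% and 45.6% of the C1q cells. Birc5, survivin, which acts in cell division, had 52 and 20 UMIs, with 1.70 (0.93 to 2.52), beside 1.24. Over the alternatives Birc5 ranged from 1.07 to 2.76. Dennd5b had 41 and 12 UMIs in 16 and 5 cells, with 2.09 (1.13 to 3.15), beside -0.16, and 3 cells held 53.7% and 83.3% of them. Its lowest ratio over the alternatives was 1.31. Prdx6, a peroxidase, had 50 and 22 UMIs, with an interval from 0.75 to 2.30 and values from 0.96 to 2.07 over the alternatives. The cell cycle list as a whole had a median of 0.36, below the 0.74 of all other cells.

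Among the leading lower genes, Mgp, Aspn, Fbn1, Gsn and Col4a1 are genes that matrix-forming mesenchyme or vessel walls express strongly. Mgp, matrix Gla protein, had 17 and 146 UMIs, with a log2 ratio of -2.78 (-3.60 to -2.06), and was seen in 7 of 139 and 22 of 169 C1q cells. In all other cells Mgp was at -1.28 and Aspn, Fbn1, Gsn and Col4a1 were also negative. With Col1a1 held to 0.2% of UMIs, Gsn moved from -1.94 to -0.11 and Fbn1 from -1.95 to -0.67, while Mgp was at -1.74. Without a limit on Col1a1, Aspn moved from -2.68 to -1.35. The summed mesenchyme markers were at 1251 and 2723 UMIs within the C1q cells, a log2 ratio of -0.80 (-0.90 to -0.71), beside -0.14 in all other cells. Col1a1 led them in Lipo-Clo, with 415 and 698 UMIs, and Col3a1 in Lipo-PBS, at 700 and 1637 CPM. Col1a1 was limited by the rule that chose the cells, so that its level describes the choice. All 8 markers were detected in both libraries, and all 8 had a negative ratio. Whether transcripts of mesenchyme in the C1q cells account for the lower values of these matrix genes was not tested.

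Markers of other cell types differed between the libraries inside the C1q cells, several of them much as in all other cells. The 8 neutrophil markers, led by S100a9 with 1090 and 79 UMIs, held 1930 UMIs in Lipo-Clo against 125 in Lipo-PBS, with a log2 ratio of 4.27 beside 2.20 in all other cells. Of the Lipo-Clo UMIs 3 cells held 89.2%, and the rest were spread widely, since 109 of 139 Lipo-Clo and 39 of 169 Lipo-PBS C1q cells held at least 1. After thinning S100a9 was seen in 31.5% of Lipo-Clo and 6.25% of Lipo-PBS C1q cells. It was also seen in 24.7% and 10.7% of thinned B cells and in 22.4% and 9.60% of thinned mesenchymal cells. The progenitor genes Prtn3 and Elane, outside the naming rule and chosen after their values were seen, had 259 and 201 UMIs in Lipo-Clo and 1 and 3 in Lipo-PBS, almost all in 3 cells. The 9 monocyte markers, led in Lipo-Clo by Plac8 with 62 and 11 UMIs, held 185 and 75 UMIs, with 1.62 beside 1.02. Of the Lipo-Clo UMIs 3 cells held 56.8%. Only 2 of the 9 were in use, 1 with a positive and 1 with a negative log2 ratio, and their median was 0.36. In the monocyte list, Ly6c2, a surface marker of inflammatory monocytes, had 19 and 1 UMIs, while Ccr2 had 24 and 11. Vcan, which led the list in Lipo-PBS, went the other way, at 48.5 CPM in Lipo-Clo and 79.9 in Lipo-PBS. Epithelial markers, led by Odam with 874 and 590 UMIs, held 1509 and 933 UMIs, with 1.01 beside 0.94. Perivascular markers, led by Rgs5 with 54 and 256, held 101 and 441, with -1.81 beside -0.86. Glial markers held 4 and 192, with -5.27 beside -1.85, and 3 Lipo-PBS cells held 92.2% of the latter. Erythroid markers, led by Hbb-bs with 7269 and 12372 UMIs, held 10727 and 18987, with -0.51 beside -0.49.

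When every cell with at least 5 UMIs of epithelial, endothelial, perivascular, neutrophil, glial, T or NK or B cell markers, or of Elane and Prtn3, was left out, 107 Lipo-Clo and 141 Lipo-PBS cells remained. The genes at least 2-fold higher and lower then numbered 124 and 445. The MHC class II median was 1.32 and the resident macrophage median -0.74, so both were as large without these cells. Clu, a secreted chaperone that is abundant in tooth epithelium and was among the leading higher genes at 1.00 (0.74 to 1.26), was at -0.14 without them and at -1.92 without the cells of highest doublet score, and 3 cells had held 52.0% and 79.5% of its UMIs. The loss of Slc40a1 shrank from -1.25 to -0.66, of Ccl24 from -2.33 to -1.56 and of Spp1 from -1.28 to -0.73.

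**Figure D5:**
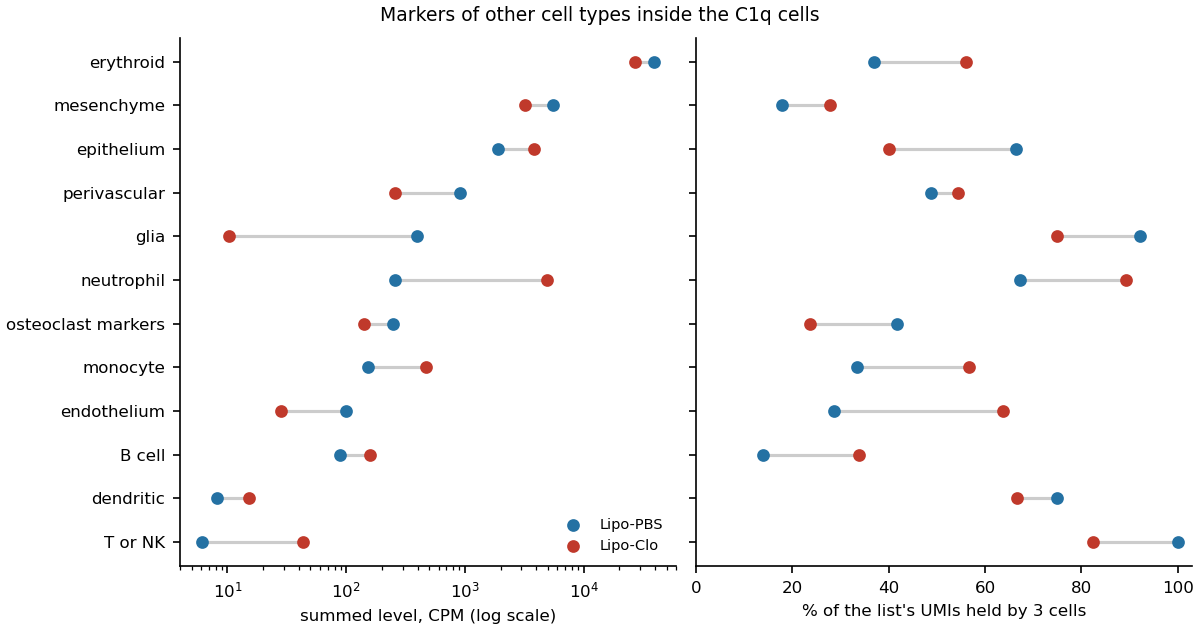
Markers of other cell types inside the C1q cells, with the summed level of each list in CPM on a log axis (left) and the percentage of its UMIs held by the 3 richest cells (right), for Lipo-PBS (blue) and Lipo-Clo (red). Neutrophil markers are higher in Lipo-Clo, where 3 cells hold 89.2% of them, and perivascular and glial markers are higher in Lipo-PBS.

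The C1q cells were set beside the populations most like them, which were gated on markers and are given as levels; a gene of its own gate describes that choice. Cells with MHC class II and without C1q held at least 20 UMIs over H2-Aa, H2-Ab1, H2-Eb1 and Cd74 and at most 1 of C1q and 1 of Cd79a and Cd79b, and osteoclast-marker cells at least 10 UMIs over Acp5, Ctsk, Atp6v0d2, Ocstamp, Dcstamp and Oscar outside the C1q rule. The first numbered 111 cells from Lipo-Clo and 117 from Lipo-PBS, and their Cd74 was at 16660.4 and 11999 CPM. Mrc1 was at 30.0 and 60.0 CPM there, far below its level in C1q cells. Monocyte-marker cells held at least 3 UMIs over Ly6c2, Ccr2 and Ms4a4c, at least 1 of Csf1r and at most 1 of C1q. They numbered 56 in Lipo-Clo and only 9 in Lipo-PBS. F13a1 was at 191 and 271 CPM in them, beside 184 and 531 in C1q cells, and Mrc1 at 6.91 and 0 CPM. Osteoclast-marker cells numbered 47 and 42, with Acp5, tartrate-resistant acid phosphatase, at 3246 and 2031 CPM, whereas C1q cells had 105 and 53.3 CPM. The higher Acp5 level in Lipo-Clo C1q cells was not kept at a limit of 3 C1q UMIs, where the log2 ratio was -0.09. The osteoclast list had a median of -0.23 over 5 genes in use. Ctsk, its protease, had 7 and 50 UMIs in C1q cells, with -2.52 (-3.91 to -1.37), but came into use through Lipo-PBS alone, where 3 cells held 62.0% of its UMIs. Over the alternatives Ctsk ranged from -3.74 to -1.20. It stood higher in mesenchymal cells, at 304 and 351 CPM. Mmp9, with 3 and 17 UMIs, was not in use, and Tcirg1, a proton pump subunit, was at 0.38 (-0.55 to 1.32).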

How the data were processed

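For each of 2 libraries the authors deposited a matrix of UMI counts, not normalized. The matrix headers name Cell Ranger 8.0.0, whereas the submitters' processing notes name Cell Ranger 3.1.0, Seurat 3.1.1 and GRCm39 (mm39). The counts held 31053404 UMIs in 9362 cells (Lipo-Clo) and 30537834 in 9653 cells (Lipo-PBS). UMIs of the C1q cells were summed per library and scaled to CPM, and log2 ratios carry exact conditional intervals for 2 Poisson counts (SciPy 1.17.1). The intervals were tried on counts simulated from the same Poisson model. That trial checks the calculation only, since it leaves out the uneven spread of UMIs over cells. Shares carry exact Clopper-Pearson intervals at 95%. Genes in use had a UMI in at least 10% of the C1q cells of either library and at least 20 UMIs.

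Named genes were the C1q genes and identity markers. They included, in each functional list, the 4 members in use with most UMIs and those past 2-fold with at least 50. The 12 leading genes per direction with at least 50 UMIs, without mitochondrial, haemoglobin, ribosomal and other cell type genes, were named too. So were Slc25a4 and Slc25a5, and Ccl2, Ccl7, Lgals3, Fabp5, Acp5, Mmp9, Tgfb1, Tgfb2 and Col1a1, taken with the study's macrophage subsets in mind. The study's text names those subsets by Ccl2, Col1a1, Lgals3 and Acp5 and links TGF-beta to the Col1a1 subset. Other members of a list that the text names were chosen after their values were seen. Members and lists were chosen with earlier results of these data known. Doublets were not removed beyond the limits on Col1a1, Cd79a and Cd79b; Scrublet (scanpy 1.11.5) was an alternative, as were edgeR 4.0.16 TMM and DESeq2 1.42.0 factors. Promoter windows were matched by symbol only. Some named genes are not reported here.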

Additional observations from a re-analysis of the deposited data

How the results depend on the processing

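No paired analysis was possible because Lipo-Clo and Lipo-PBS are 1 library each. The share of C1q cells kept its direction in the alternatives for cells, at log2 ratios between -0.40 and -0.20. That range does not cover leaving out the cells rich in MHC class II, which left 97 Lipo-Clo and 148 Lipo-PBS cells. The genes at least 2-fold higher numbered 190 with edgeR TMM factors, 188 with DESeq2 size factors and 189 over all genes with at least 20 UMIs. With cells thinned to 1000 UMIs they were 314 higher and 751 lower, with fewer UMIs per gene. At 1.5-fold there were 447 higher and 1174 lower genes, and at 4-fold 7 and 43. The other alternatives (C1q at 3 or 10 UMIs or 0.2% of UMIs, Col1a1 at 0.2% or without a limit, stricter or no limits on cells, Scrublet, a total without mitochondrial, haemoglobin and ribosomal genes, the mean over cells) left both numbers within 1.5 times. The automatic Scrublet threshold called 0 and 1 cells, so the highest scores, 632 and 633 cells, were left out, among them 20 C1q cells in each library.

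Of 384 list medians under 16 alternatives, 383 stayed between the medians of the members' lower and upper interval bounds. The exception was MHC class II presentation at 0.22 when the cells with 10 or more MHC class II UMIs were left out, an alternative added after the data had been seen, as was leaving out cells with other lineage markers. In that setting H2-Aa was at -0.37 and H2-Ab1 at -0.48, since the cells had been chosen on these genes. In all, 33 of 150 named genes changed sign in some alternative, 13 of them with an interval clear of 0. Besides H2-Aa and H2-Ab1, these 13 were H2-DMb1 (-0.022), Ncoa4 (0.13), Timp2 (0.27) and Mcl1 (0.11) with thinned cells, Clu (-1.92) and Fth1 (-0.04) without Scrublet doublets, Acp5 (-0.09) and Ifitm3 (-0.02) at 3 C1q UMIs, Id3 without a limit on Col1a1, Ftl1 under 4 alternatives (up to 0.07) and Ctss (-0.03) without the MHC class II range. Tgfb2 (0.11 without Scrublet doublets) was past 2-fold but its interval included 0. The cause was not tested. Of 2400 values for 150 named genes, 2153 stayed inside the gene's interval. With 1 library per condition, differences between mice, litters or libraries cannot be told apart from the treatment.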

Other observations

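All 9 genes in use of 12 MHC class I genes were positive, against 1771 of all 4458 genes. The median log2 ratio of the 9 was 0.32 in C1q cells and 0.34 in all other cells. Summed, the list was at 0.24 (0.14 to 0.34) beside 0.45 (0.42 to 0.47). B2m, the light chain shared by all class I molecules, was at 1497 and 1375 CPM, with 0.12 beside 0.33, and Psmb9, an immunoproteasome subunit, had 43 and 24 UMIs and a ratio of 1.16 (0.41 to 1.94), beside 1.34 in all other cells.

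Lysosomal genes, 34 of 35 in use, had a median of -0.15, close to the -0.17 of all genes, beside 0.02 in all other cells. Ctsb, a cysteine protease, was at 1889.9 and 2871 CPM, with -0.60 (-0.73 to -0.47), while Cst3, an inhibitor of such proteases, was at 4112 and 3818 CPM, with 0.11 (0.01 to 0.20). The transcription factor genes Maf and Zeb2 were at -0.47 (-0.72 to -0.23) and -0.60 (-0.91 to -0.29), and Mitf had 10 and 42 UMIs, with -1.75 (-2.91 to -0.73). Of 22 macrophage transcription factor genes in use, Mitf was the 1 at least 2-fold lower, against 10.6% of all genes. Mitf came into use through Lipo-PBS alone. Mif, a cytokine, was at 480.1 and 242 CPM, with 0.99 (0.65 to 1.33), beside 0.42 in all other cells. Without the cells that held other lineage markers it was at 0.56.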
